A study of Mus musculus with 7 samples.

Results

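A set of 2257 autosomal sites of the glucocorticoid receptor was found in mouse embryonic fibroblasts lacking Klf15 after dexamethasone, and in none of the wild-type or vehicle lists. The deposited peak summits of all 7 libraries were joined into sites when neighbouring summits were at most 200 bp apart. A site was taken when both Klf15-/- dexamethasone lists held it, neither wild-type dexamethasone list did and none of the 3 vehicle lists did, on chromosomes 1 to 19. The 2257 sites are 12.1% of the 18700 autosomal sites without a vehicle summit. There were 33916 autosomal sites and 35316 sites in all. The count depended on the lists: it was 5285 or 5112 when the first or second Klf15-/- dexamethasone library was left out, so that 1 list sufficed, and 1278 when the 4 dexamethasone lists were cut by score to the length of the shortest. The reverse rule, both wild-type and neither Klf15-/- dexamethasone list, took 1001 sites, or 5.35% of the same 18700. The Klf15-/- dexamethasone lists were longer than the wild-type ones, and the reverse count was made on the full lists only. These counts were fixed by the rule and are a description, with no test. All 7 lists were used to choose the sites, so no list is left that could serve as an independent check of their absence or presence.

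The study compared fibroblasts of wild-type and Klf15-/- embryos by chromatin immunoprecipitation and sequencing with an in-house antibody to the receptor, NR3C1. Its groups were wild type with ethanol (1 library, pooled because material was scarce), wild type with dexamethasone (2 libraries), Klf15-/- with ethanol (2) and Klf15-/- with dexamethasone (2), with 1 h of exposure. All cells were grown in serum-containing medium, and the dose of dexamethasone is not given in the sources used here. How many embryos or cultures stand behind a genotype is not stated, so the spread between libraries may be technical and a difference between genotypes cannot be told apart from one between cultures. Summit lists hold no expression values, so neither the fibroblast identity nor the loss of Klf15 could be checked.

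The glucocorticoid receptor waits in the cytoplasm until a steroid binds it, then enters the nucleus. There it occupies palindromic response elements or joins other factors already on the DNA, and most of its sites lie in chromatin that was open beforehand. Dexamethasone is a synthetic agonist of the receptor. KLF15 is a zinc-finger factor that binds GC-rich and CACCC-type sequences. Its gene is itself induced by glucocorticoids, and the factor is known to act together with the receptor at some metabolic genes. Which genes the sites lie next to, and their sequences, are not analysed here, because no genome or annotation of the build of the files, mm9, was used.

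The dexamethasone lists held 19999 and 20169 summits in Klf15-/- cells and 15628 and 16927 in wild type. The vehicle lists held 7325 and 8088 in Klf15-/- and 10034 in wild type. Depth is unknown for all libraries, and a missing summit shows only that the authors' caller listed none there. The first Klf15-/- vehicle library stood apart: it had 414 pairs of adjacent summits closer than 200 bp, where no other list had over 4. Without it the rule took 2362 sites, at a median of 22.5 kb from a wild-type dexamethasone summit. The Klf15-/- and wild-type libraries also differed outside the autosomes. Chromosome Y held 75 and 75 summits of the Klf15-/- dexamethasone lists and 197 and 78 of the Klf15-/- vehicle lists, but 2, 1 and 2 in the wild-type lists. The sample titles give no embryo sex, so a difference in sex between the cultures cannot be told apart from one of genotype. The part that such a difference between the cultures has in the autosomal set was not tested.

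Among ligand-dependent Klf15-/- sites, meaning those of both dexamethasone lists and no vehicle list, the ones without a wild-type summit mostly ranked low. Of 6290 such autosomal sites, 2257 had no wild-type dexamethasone summit (35.9%), 1313 had a summit in 1 wild-type list (20.9%) and 2720 had one in both (43.2%). The 1313 sites just outside the rule were split unevenly between the wild-type libraries. The first, shorter list held 550 of them and the second held 763. In those lists they stood at a median percentile of 25.9 and 29.0, where the percentile is the share of a list's summits that score no higher. At these sites the single wild-type summit was thus mostly in the lower part of its list.

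Sites seen by 1 Klf15-/- library were more numerous than the set itself. With no wild-type and no vehicle summit, 2855 autosomal sites were held by the first Klf15-/- dexamethasone list alone and 3028 by the second alone. Their median percentiles were 19.1 and 19.4. Another 1003 sites met the rule except for a vehicle summit, 6.59% of the 15216 autosomal sites with one. Of these 1003, 719 had a summit in the second Klf15-/- vehicle list, 348 in the first and 285 in the wild-type vehicle list. Their median percentile in the Klf15-/- dexamethasone list where they ranked lower was 38.3.

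Among the 2257 sites, scores were low in both libraries and alike in their distribution, though not site by site. The median score was 7.99 in the first Klf15-/- dexamethasone library and 7.96 in the second, on the authors' unstated scale. These medians were at percentiles 37.2 and 36.9 of their lists. The middle of the distribution, from the lower to the upper quartile, ran from 19.1 to 53.5 in the first library and from 19.4 to 54.3 in the second. In the library where a site ranked lower, the median was 24.7. The corresponding median was 31.7 for sites that also had 1 wild-type list and 58.0 for sites of all 4 dexamethasone lists without vehicle summit. Wild-type only sites, ranked in the wild-type lists, had 22.2. A low rank was thus shared by the sets restricted to either genotype.

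The share of sites without a wild-type summit fell steadily with rank. Up to percentile 10, 404 of 714 ligand-dependent Klf15-/- sites had none (56.6%, exact 95% binomial interval 52.9 to 60.3%). Between percentiles 40 and 50 it was 262 of 697 (37.6%, 34.0 to 41.3%). Between 70 and 80 it was 62 of 407 (15.2%, 11.9 to 19.1%), and between 80 and 90 it was 15 of 360 (4.17%, 2.35 to 6.78%). Above percentile 90 it was 3 of 379 (0.792%, 0.164 to 2.30%). Intervals here cover counting error only. The share held by 1 wild-type list stayed between 19.5% and 26.2% up to percentile 70 and was 0.792% above percentile 90.

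**Figure D1:**
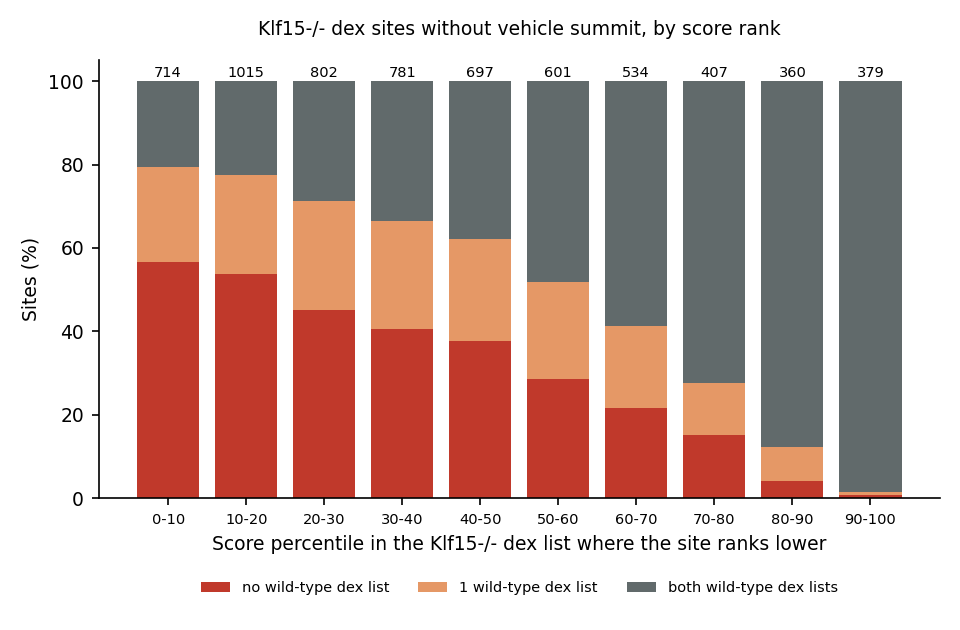
Percentage of autosomal Klf15-/- dexamethasone sites without vehicle summit (y axis) that were held by no, 1 or both wild-type dexamethasone lists, by bins of 10 points of score percentile in the Klf15-/- list where the site ranks lower (x axis); numbers above the bars are sites. The part with no wild-type list goes from 56.6% in the lowest bin to 0.792% in the highest.

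The 2 Klf15-/- libraries often ranked these sites differently. Their summits could be at most 200 bp apart by the linkage rule, unless another summit of the site lay between them, so their closeness was fixed by the choice of sites. The summits lay a median of 48 bp apart, and 1851 of 2257 pairs were within 100 bp (82.0%, 80.4 to 83.6%). At 16 sites both libraries gave the same base. The offset was 46 bp in wild-type only sites and 46 bp in sites with 1 wild-type list, but 34 bp in sites of all 4 lists without vehicle summit. Within the set it was smaller at higher ranks. The median was 56.5 bp in sites up to percentile 20, 43 bp between 40 and 60, and 23.5 bp in the 18 sites above 80.

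The percentiles of a site in the 2 libraries differed by a median of 15.2 points. Over the 2257 sites their Pearson r was 0.450 and their Spearman rho 0.421. Over sites of all 4 dexamethasone lists without vehicle summit these were 0.715 and 0.781. The points are sites of the same 2 libraries, the range of ranks differs between the sets, and scores repeat, with up to 532 summits on 1 value in the first library. The values are therefore a description. Sites above percentile 50 in both libraries numbered 368 of 2257 (16.3%).

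**Figure D2:**
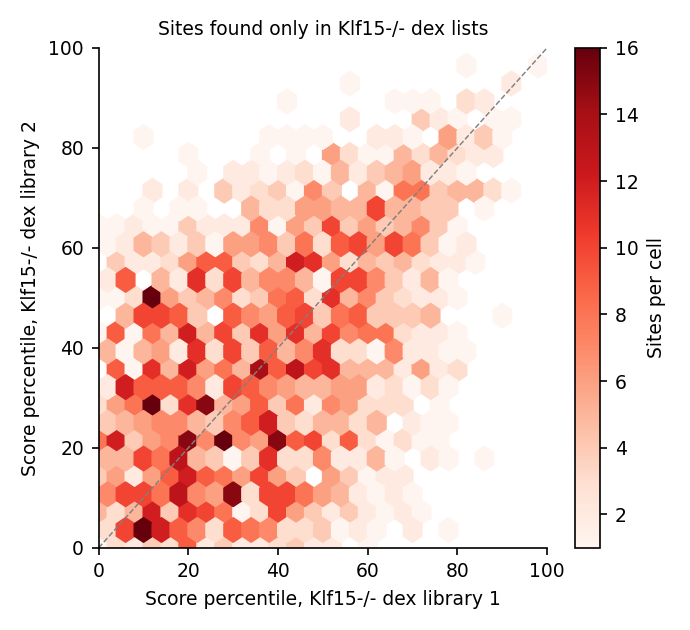
Score percentile of the 2257 sites in Klf15-/- dexamethasone library 1 (x axis) and library 2 (y axis); darker cells hold more sites and the dashed line marks equal rank. The sites spread widely about the line, with a median difference of 15.2 points and few sites above percentile 80 in both.

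The 5 sites with the largest disagreement differed by 65.1 to 74.3 points. The site on chromosome 2 from 118366585 to 118366665 stood at percentile 78.9 in the first library and 4.65 in the second. A chromosome 1 site from 173024723 to 173024729 had the reverse order, 10.4 and 81.9. Both sites on chromosome 13, at 117740344 to 117740345 and 117605631 to 117605654, ranked higher in the first library (86.1 and 70.1) than in the second (15.9 and 4.78). A chromosome 6 site from 119529223 to 119529315 stood at 69.1 and 4.04. The first library ranked the site higher in 4 of these 5, and the summits of the 2 libraries lay 1 to 92 bp apart.

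Coordinates here and below are those of mm9, counted from 1. The strongest site of the set lay on chromosome 7 from 65711091 to 65711096. It scored 54.6 in the first and 38.2 in the second Klf15-/- dexamethasone library, at percentiles 98.1 and 95.6, with summits 5 bp apart. The nearest summit was 171 kb away in both wild-type dexamethasone lists and 56.4 kb away in the wild-type vehicle list. It was 12.1 and 12.2 kb away in the Klf15-/- vehicle lists. No other list thus had a summit within 10 kb.

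The 15 sites that ranked highest in their lower library were spread over 10 chromosomes. Their percentiles ran from 81.9 to 98.1 in the first library and from 82.6 to 95.6 in the second. Their distance to the nearest wild-type dexamethasone summit ran from 0.575 to 2225 kb, with a median of 171 kb. For 9 of the 15 it was beyond 100 kb, and for 2 it was within 10 kb. High rank in this small group, chosen by score, went with long distances. Among all sites above percentile 80 in both libraries (18) the median was 155 kb, against 21.4 to 24.3 kb in the 4 lower bins of 20 points. These 18 also lay far from other sites of both Klf15-/- dexamethasone lists. That median was 133 kb, against 19.2 to 27.6 kb in the lower bins, so the long distances were not particular to wild-type summits.

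Several of the 15 had neither a wild-type nor a vehicle summit near. The site on chromosome 1 from 28988561 to 28988586 stood at percentiles 81.9 and 94.97. Its nearest summit was 2225 kb away in both wild-type dexamethasone lists, 2019 kb in wild-type vehicle, and 1163 and 1792 kb in Klf15-/- vehicle. For chromosome 12, from 31320523 to 31320541, a site at 84.5 and 82.7 had its nearest summit of any other group 391 kb away. For chromosome 10, from 6514681 to 6514703, a site at 86.4 and 83.7 had its nearest at 197 kb. A site on chromosome 2 from 133903922 to 133903940 stood at 91.6 and 91.9, with wild-type dexamethasone summits at 265 kb and Klf15-/- vehicle summits at 136 and 137 kb.

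Others had a vehicle summit nearer than any wild-type dexamethasone summit. On chromosome 18, from 17047826 to 17047867, the site stood at percentiles 85.4 and 82.7. The first Klf15-/- vehicle list had a summit 0.676 kb away, while the nearest wild-type dexamethasone summit was 139 kb away. On chromosome 9, from 112942380 to 112942395, the site stood at 92.0 and 91.5. Both Klf15-/- vehicle lists and the second wild-type dexamethasone list had summits at 14.4 to 14.5 kb, while the first wild-type dexamethasone list had none within 211 kb. On chromosome 1, from 109813705 to 109813749, the site stood at 85.3 and 88.1. Vehicle summits were at 143 kb in wild type and at 143 and 94.95 kb in Klf15-/-, but wild-type dexamethasone summits only at 1287 and 1216 kb.

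The remaining high-ranked sites ran from close to far. On chromosome 3, from 46175064 to 46175072, the site (percentiles 89.1 and 84.7) had summits of both wild-type dexamethasone lists at 0.580 and 0.575 kb, and of both Klf15-/- vehicle lists at 0.449 and 0.521 kb. On chromosome 10, from 82631610 to 82631627, the site (92.9 and 85.4) had wild-type dexamethasone summits at 2.85 and 2.90 kb, and a site of all 4 dexamethasone lists beside it at 2.83 kb. For the sites at 140503601 to 140503634 on chromosome 1 and at 116222079 to 116222166 on chromosome 8, the nearest wild-type dexamethasone summits were 10.9 and 15.4 kb away. On chromosome 16 (90736238 to 90736312) the distance was 65.3 kb. Both other sites had a vehicle summit nearer than a wild-type dexamethasone summit. On chromosome 2 (101263907 to 101263996) these were 66.6 and 216 kb away, and on chromosome 3 (28319219 to 28319222) 106 and 302 kb.

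Over the whole set, most sites lay kilobases from any wild-type receptor summit. The median distance to the nearest wild-type dexamethasone summit was 22.0 kb (quartiles 6.91 and 72.1 kb), and the rule fixed only that it exceed 200 bp. To the first wild-type list alone the median was 33.2 kb, and to the second, longer list it was 28.8 kb. A wild-type dexamethasone summit lay within 1 kb of 145 sites (6.42%, 5.45 to 7.52%), within 10 kb of 716 (31.7%, 29.8 to 33.7%) and within 100 kb of 1810 (80.2%, 78.5 to 81.8%). Within 1000 kb one was found for 2232 sites (98.9%). The share within 1 kb followed the linkage distance, with 12.5% at 100 bp and 3.40% at 500 bp. The rank of a site made little difference below percentile 80, with medians from 21.4 to 24.3 kb.

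The 5 sites farthest from wild-type dexamethasone summits were 1825 to 2289 kb away. A chromosome 16 site (82392140 to 82392197), with percentiles 28.3 and 19.4, was 2289 kb away. A chromosome 4 site (22347886 to 22347953), with percentiles 65.0 and 50.9, was 2229 kb away. The others were a pair on chromosome 1 (28988561, described above, and 29388867 to 29388922, which are 400 kb apart) and one on chromosome 17 (91561333 to 91561393, at percentiles 10.4 and 44.4). Apart from the first of the chromosome 1 pair, the farthest sites did not rank high.

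The values on either side of the linkage distance were as follows. In 24 sites the nearest wild-type dexamethasone summit was at most 300 bp away, and in 29 the nearest vehicle summit was. On the other side of the threshold, 4033 ligand-dependent Klf15-/- sites did hold a wild-type summit. It was a median of 14 bp from the nearest Klf15-/- summit, and in 122 of them it was over 100 bp away. The lower percentile had a median of 21.6 in the 24 sites just inside and of 23.9 in the 122 just outside. With a linkage gap of 100 bp in place of 200 bp the rule took 2060 sites, and their median lower percentile was 28.3.

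The 5 sites nearest to a wild-type dexamethasone summit, at most 213 bp away, showed 3 kinds of neighbour. At the sites starting at 121214229 on chromosome 7, at 52933062 on chromosome 15 and at 58161074 on chromosome 9, the neighbour was a single weak summit of 1 wild-type library, at percentiles 17.6, 10.8 and 5.38. On chromosome 13 (37394590 to 37394749) the neighbour from 37394952 to 37395045 stood at percentiles 75.6 and 71.9 in both wild-type dexamethasone lists and at 16.7 in wild-type vehicle, with no Klf15-/- summit. There the Klf15-/- site itself stood at 58.6 and 59.9. On chromosome 17 (16191553 to 16191670) the neighbour from 16191873 to 16192091 was held by 6 of the 7 lists, all but the second Klf15-/- dexamethasone list.

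For the 145 sites with a wild-type dexamethasone summit within 1 kb, the neighbour was of several kinds. It had a summit of at least 1 Klf15-/- dexamethasone list in 95 cases (65.5%, 57.2 to 73.2%), all 4 dexamethasone lists held it in 43, and a vehicle list held it in 63. In 36 cases 1 wild-type and no Klf15-/- dexamethasone list held it, whatever the vehicle lists held. In 9 it was a wild-type only site. A Klf15-/- only site within 1 kb of a wild-type only one was thus seen 9 times, and 48 of the 2257 sites had a wild-type only site within 10 kb. The share of all wild-type dexamethasone sites that a Klf15-/- dexamethasone list holds is not given here, so the 65.5% has no direct background. Of autosomal sites of both wild-type dexamethasone lists without vehicle summit, 1001 of 4554 had no Klf15-/- dexamethasone summit (22.0%).

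The 5 closest such pairs were 256 to 331 bp apart. On chromosome 15 the Klf15-/- site from 85906239 to 85906253 (percentiles 39.6 and 21.0) faced a wild-type site from 85905956 to 85905983 (35.8 and 37.7 in the wild-type lists). On chromosome 9 the Klf15-/- site from 120915205 to 120915277 (66.5 and 72.4) faced one from 120914912 to 120914918 (38.0 and 53.9). The pair on chromosome 15 at 38258690 to 38258743 (80.8 and 56.7) had its wild-type partner from 38258344 to 38258359 (33.0 and 69.2). The last pairs were on chromosome 17 (27290458 to 27290533, percentiles 73.7 and 66.3) and chromosome 2 (117776919 to 117776928, percentiles 49.6 and 12.8). In these 5 Klf15-/- sites the summits of the 2 libraries were 9 to 75 bp apart.

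The sites also lay far from the receptor sites common to both genotypes. The median distance to the nearest of the 8842 autosomal sites held by all 4 dexamethasone lists, with or without a vehicle summit, was 59.1 kb (quartiles 16.7 and 163 kb). It was 34.9 kb for wild-type only sites, 37.2 kb for Klf15-/- sites with 1 wild-type list and 26.6 kb from a site of all 4 lists without vehicle summit to the next such common site. Within 10 kb of a common site were 374 of the 2257 (16.6%, 15.1 to 18.2%). The order was similar at given ranks. Up to percentile 20 the medians were 61.9 kb for the set, 36.3 kb for wild-type only sites, 36.3 kb for sites with 1 wild-type list and 33.3 kb for sites of all 4 without vehicle summit. Between 40 and 60 they were 50.6, 25.2, 44.5 and 25.3 kb, so the set was then close to sites with 1 wild-type list. Between 60 and 80 they were 54.2, 29.7, 41.9 and 27.0 kb.

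The same order was seen chromosome by chromosome. The median distance of the set to a common site was longer than that of wild-type only sites on 15 of 19 autosomes, than that of sites with 1 wild-type list on 16, and than that of sites of all 4 lists without vehicle summit on 18. Sites are not replicates of a genotype and no test was made. Common sites need wild-type summits, so this distance uses the same wild-type lists as the rule.

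Distances that use no wild-type dexamethasone list gave smaller gaps. To the nearest other site held by both Klf15-/- dexamethasone lists the median was 23.7 kb for the set, 21.0 kb for wild-type only sites, 19.6 kb for sites with 1 wild-type list and 16.1 kb for sites of all 4 lists without vehicle summit. By chromosome, the median of the set was the longer one on 11 of 19 autosomes against wild-type only sites. Against the other sets, in the order above, it was the longer one on 16 and 18. At given ranks this order did not always hold. Between percentiles 20 and 40 the set had 22.1 kb and wild-type only sites 23.8 kb. Between 60 and 80 these were 19.2 and 22.2 kb, and in the other bins of 20 points the set had the longer median of these sets. To the nearest vehicle summit the median was 31.6 kb for the set and 22.5 kb for wild-type only sites. It was 24.9 kb for sites with 1 wild-type list and 22.0 kb for sites of all 4 without vehicle summit. The set had the longer median on 17, 13 and 19 autosomes against these sets, in the same order. Between percentiles 40 and 60, however, it had 31.1 kb and sites with 1 wild-type list 31.9 kb. The gap differed between vehicle libraries. To the wild-type list the medians were 61.1 kb for the set and 31.3, 43.5 and 35.3 kb for the others. To the second Klf15-/- vehicle list they were 59.0 against 56.6, 54.1 and 50.3 kb, and to the first 107 against 91.9, 94.1 and 87.7 kb. For 560 of the 2257 sites (24.8%, 23.0 to 26.6%), no wild-type dexamethasone summit and no vehicle summit of either genotype lay within 50 kb. For 300 (13.3%, 11.9 to 14.8%), none lay within 100 kb.

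**Figure D3:**
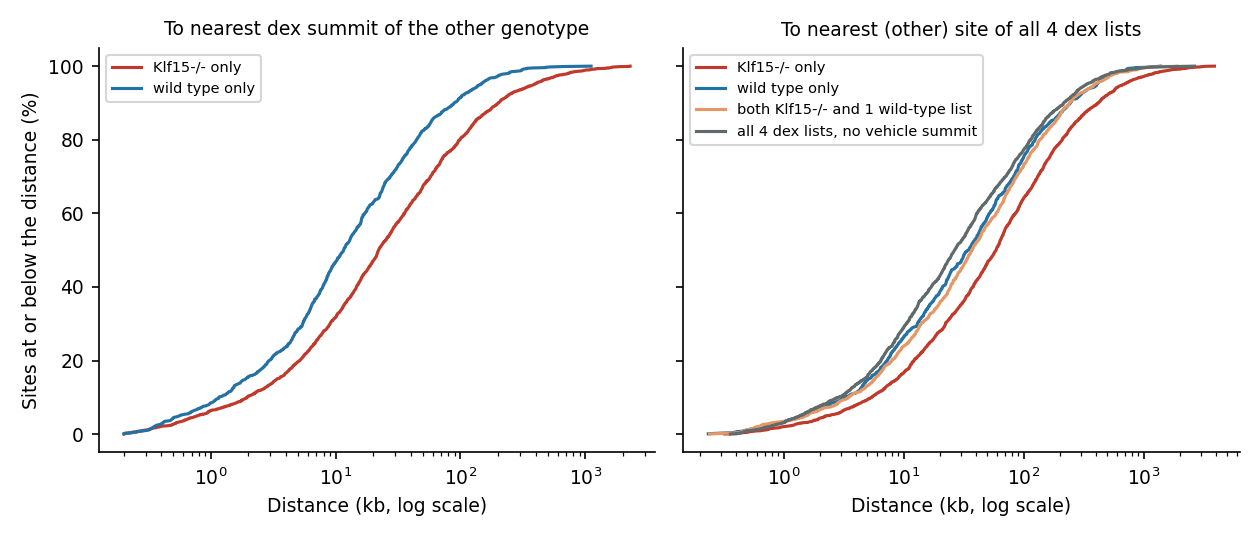
Cumulative percentage of sites (y axis) by distance in kb on a log scale (x axis), on the left to the nearest dexamethasone summit of the other genotype and on the right to the nearest other site of all 4 dexamethasone lists. On the left the Klf15-/- only curve has its median at 22.0 kb and the wild-type only curve, measured against longer lists, at 11.6 kb; on the right the Klf15-/- only median is 59.1 kb against 26.6 to 37.2 kb.

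The sites lay nearer to their own kind than wild-type only sites did, and farther than sites of all 4 lists without vehicle summit did. The nearest other site of the set was a median of 206 kb away. For wild-type only sites the distance to the nearest of their kind was 365 kb, for sites with 1 wild-type list 333 kb and for sites of all 4 lists without vehicle summit 113 kb. These sets differ in size, and no test was made. Another site of the same set lay within 100 kb for 34.5%, 23.9%, 24.1% and 47.2% of them, in the same order. Within 10 kb, 146 of the 2257 sites had one (6.47%, 5.49 to 7.56%). Of the sites of all 4 lists without vehicle summit, 345 of 2720 had one of their own kind within 10 kb (12.7%, 11.5 to 14.0%). The 2257 sites fell into 1878 intervals between neighbouring wild-type dexamethasone summits. Of these intervals, 1587 held 1 site, 228 held 2 and 63 held 3 or more, so that 670 sites shared an interval with another (29.7%). Of wild-type only sites, 133 shared an interval between Klf15-/- dexamethasone summits (13.3%). The 2 shares are not like for like. The wild-type intervals with a site had a median length of 128 kb and the Klf15-/- ones 79.4 kb, and the sets differ in size.

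The interval with most sites, 6, lay on chromosome 12 between wild-type dexamethasone summits at 46204216 and 48934991, a length of 2731 kb. It held 12 and 13 summits of the Klf15-/- dexamethasone libraries and 9 sites of both, with 2 and 3 Klf15-/- vehicle summits and 1 wild-type vehicle summit. Its best site stood at percentile 45.9 in the lower library. Intervals with 5 sites were found on chromosomes 4 (28104126 to 31281368), 13 (86445562 to 88960371), 1 (57275114 to 57821949) and 2 (45631428 to 46086758). The last was 455 kb long, with 7 summits in each Klf15-/- dexamethasone library. Its best site stood at percentile 79.99. The intervals were listed by their number of sites after these were counted, and are a description.

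In windows of 1 Mb, 8 sites was the largest number. The window from 94 to 95 Mb on chromosome 6 held 8, with 26 and 29 summits in the Klf15-/- dexamethasone libraries, 13 and 13 in wild-type dexamethasone, 4 and 7 in Klf15-/- vehicle and 11 in wild-type vehicle. The window from 117 to 118 Mb on chromosome 2 also held 8. It was dense in every library, with 40 and 40 against 22 and 27 summits after dexamethasone, and 13 and 15 against 26 with vehicle. In both windows the wild-type vehicle list had more summits than the Klf15-/- ones, the reverse of the order after dexamethasone. The whole lists had the same orders. They held 10034 wild-type against 7325 and 8088 Klf15-/- vehicle summits, and 15628 and 16927 against 19999 and 20169 after dexamethasone.

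Windows with 7 sites were from 54 to 55 Mb on chromosome 14 and from 135 to 136 Mb on chromosome 1. On chromosome 14 the Klf15-/- dexamethasone libraries had 17 and 17 summits and the wild-type ones 3 and 5. In vehicle the counts were 5 and 7 against 2, with wild type in 1 library. On chromosome 1 the dexamethasone summits numbered 21 and 23 against 17 and 16. Both windows were selected for their number of sites, which by the rule need Klf15-/- and exclude wild-type dexamethasone summits. A window with 6 sites, from 57 to 58 Mb on chromosome 1, was singled out after its values were seen. It had 12 and 13 Klf15-/- against 1 and 2 wild-type dexamethasone summits, no site of all 4 lists, and 1, 2 and 2 vehicle summits.

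**Figure D4:**
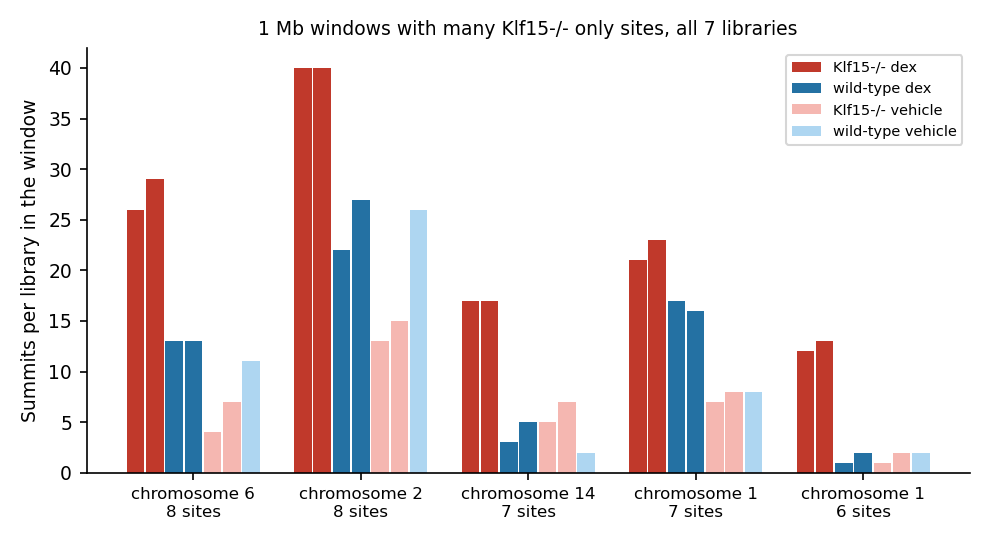
Summits per library (y axis) in 5 windows of 1 Mb that held 6 to 8 of the sites (x axis, in order of the number of sites), with 1 bar per library and colours for genotype and treatment. The Klf15-/- dexamethasone bars are above the wild-type dexamethasone bars in all 5 windows. The windows were selected for their number of sites, which need Klf15-/- and exclude wild-type dexamethasone summits. The one with 6 sites was singled out after its values were seen. The wild-type dexamethasone bars are low on chromosome 14 (17 and 17 against 3 and 5) and in the chromosome 1 window with 6 sites (12 and 13 against 1 and 2). In the key, dex is dexamethasone.

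All 19 autosomes held sites of the set, from 50 on chromosome 19 to 211 on chromosome 2. As a share of ligand-dependent Klf15-/- sites, those without a wild-type summit ranged from 25.6% on chromosome 17 (54 of 211, 19.8 to 32.0%) and 26.7% on chromosome 10 (102 of 382, 22.3 to 31.4%) to 43.4% on chromosome 1 (203 of 468, 38.8 to 48.0%) and 43.9% on chromosome 14 (116 of 264, 37.9 to 50.2%). Neighbours in this order had overlapping intervals. The share of all 6290 was 35.9%.

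The chromosomes at both ends took different shares of whole lists, as did most other autosomes. Both Klf15-/- dexamethasone shares exceeded both wild-type ones on 10 autosomes. The reverse held on chromosomes 8, 10, 13, 15, 17 and 19. On chromosome 14 the Klf15-/- dexamethasone libraries had 4.06% and 3.99% of their autosomal summits and the wild-type ones 3.41% and 3.48%. In vehicle the values were 4.31% and 4.12% against 3.54%. On chromosome 10 they were 6.48% and 6.29% against 7.90% and 7.58% after dexamethasone, and 6.31% and 6.42% against 7.77% in vehicle. The order between the genotypes was thus the same with and without ligand on both chromosomes. The part that these whole-chromosome differences have in the set was not tested. The median distance to a wild-type dexamethasone summit ran from 11.7 kb on chromosome 19 to 38.0 kb on chromosome 16.

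**Figure D5:**
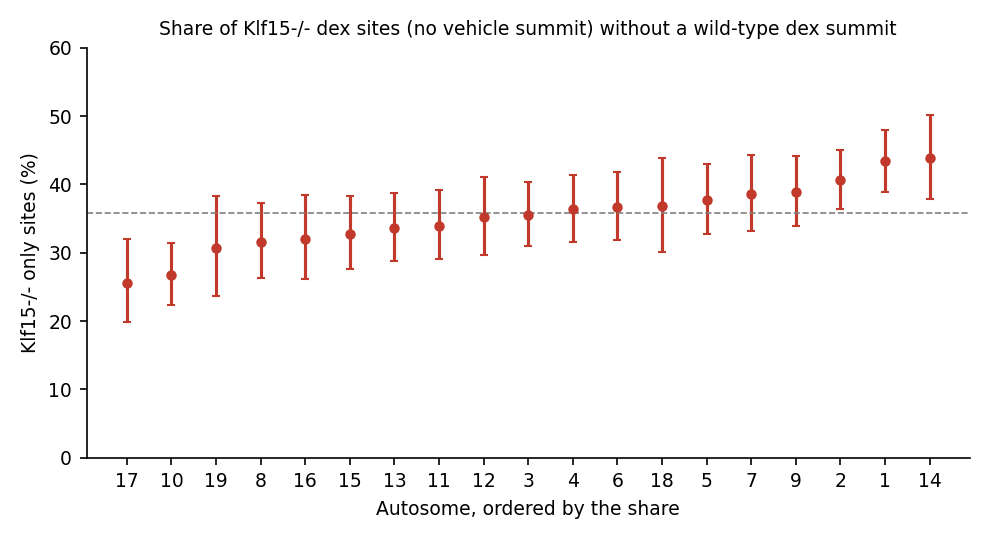
Percentage of ligand-dependent Klf15-/- sites without a wild-type dexamethasone summit (y axis) for each autosome in rising order (x axis); bars are exact 95% binomial intervals for counting error and the dashed line is the share over all autosomes. The share goes from 25.6% on chromosome 17 to 43.9% on chromosome 14.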

How the data were processed

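Glucocorticoid receptor ChIP-seq of 7 libraries in 4 groups, assigned by sample title, was used. The submitters' processing notes name CASAVA, Bowtie2, SAMtools and the build mm9. For the peak caller, its control and the cutoff, nothing is given in the sources used here. The deposited lists hold 1-bp summits per library with a score of unstated scale. The authors' score was used only within its own list, as the percentage of summits scoring no higher. Read depth is unknown.

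Summits were linked at gaps of at most 200 bp, and a site took the rank of its highest summit in a library. Distances run from edge to edge. Python 3.11.15 was used with pandas 2.3.3, numpy 2.4.6, scipy 1.17.1 and matplotlib 3.10.9 for all steps. Linkage, classification and distances were tested on simulated lists, and the other steps were not. Simulated summits of a site lay well within the linkage distance, neighbouring sites lay well beyond it, and no site held a vehicle summit. The test therefore could not check behaviour near the threshold or the vehicle filter. With 2 libraries per genotype, p = 0.333 is the smallest value that an exact two-sided permutation can give, so the genotypes were not tested against each other. Shares have exact 95% Clopper-Pearson intervals, which cover counting error only. Chromosomes X, Y and M were left out.

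The members, lists and rules were chosen with earlier results of these data known. Sites named are the 15 with the highest percentile in their lower library, the 5 farthest from and the 5 nearest to a wild-type dexamethasone summit, the 5 nearest to a wild-type only site, the 5 whose percentiles differ most and the 3 windows of 1 Mb with most sites, a tie included. Alternatives changed the linkage gap, score cutoff, list length, vehicle filter, wild-type exclusion distance and chromosomes, or left out a library. Gene names, gene positions and sequences are not analysed here, since no reference of build mm9 was used.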

Additional observations from a re-analysis of the deposited data

Results flagged for a closer look

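Chromosome X was outside the set and the comparisons, and the same list rule took 53 sites there. They are 53 of the 129 chromosome X sites held by both Klf15-/- dexamethasone lists and no vehicle list. On the autosomes the corresponding count was 2257 of 6290 (35.9%), and single autosomes ran from 25.6% to 43.9%. On chromosome X, 33 sites met the reverse rule. Chromosome X held 485 and 462 summits of the Klf15-/- dexamethasone lists, 280 and 311 of the wild-type ones, 637 and 307 of the Klf15-/- vehicle lists and 189 of the wild-type vehicle list.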

How the results depend on the processing

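The number of sites, 2257, kept within a factor of 1.5 under both linkage distances, both vehicle filters, the 1000 bp exclusion, all chromosomes and each wild-type library left out. It was 764 with summits above the median score of each dexamethasone list and 1278 with dexamethasone lists of equal length. It ranged from 2362 to 5285 when 1 library was left out (5285 and 5112 without the first or second Klf15-/- dexamethasone library, which removes the need for repetition). With same-numbered libraries taken as pairs, a replicate block in which 1 Klf15-/- list is set against 1 wild-type list, it was 6266 and 6112. The labels give no shared culture or day for a number. Pairing was thus run on list membership alone, with no test.

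The median distance to a wild-type dexamethasone summit, 22.0 kb, was 19.7 kb with a 100 bp gap, 46.7 kb above the median score, 24.5 kb with no vehicle filter and 25.7 kb with none allowed within 1000 bp, and 21.4 to 28.3 kb with a library left out. The median distance to a site of all dexamethasone lists, 59.1 kb, was 109 kb above the median score and 40.6 to 60.6 kb with a library left out. The median lower percentile, 24.7, was 28.3 with a 100 bp gap, 61.5 above the median score, 40.4 with equal lengths and 28.5 with no vehicle filter, and 24.6 to 28.3 with a library left out. Fewer summits per list lengthen distances and raise ranks by construction. Of 86 recomputed values, 52 kept within their bounds and 34 moved. Depth is unknown, so a summit missing from a list cannot be told apart from one below its threshold.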
